A study of Mus musculus with 16 samples.

Results

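The genes described here encode the enzymes that make serine from a glycolytic intermediate and the enzymes that pass its side-chain carbon through the folate cycle of the cytosol and of mitochondria. They form a list of 10 gene symbols taken from the pathway and found by those symbols, 10 of the 40840 genes in the count table, and all 10 were among the 20444 genes tested. Of the list, 3 act in serine synthesis (Phgdh, Psat1 and Psph), 2 in the cytosolic folate cycle (Shmt1 and Mthfd1) and 5 in the mitochondrial folate cycle (Shmt2, Mthfd2, Mthfd2l, Mthfd1l and Aldh1l2).

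The libraries come from mouse hepatoblasts without p53 that overexpress Myc, written p53-/-; Myc, a cell model of sorafenib resistance in liver cancer. Cells of 2 groups were treated with sorafenib, a multikinase inhibitor used against hepatocellular carcinoma, at its IC50 for this line, for 48 hours or for 7 days. Cells of the other 2 groups received the vehicle DMSO for the same times, and all groups share the knockout and the Myc overexpression. Each group had 4 libraries, and the labels do not say whether replicates are separate cultures. The labels give the cell type as HCC and, under genotype, the entry tumor stage, which names no genotype.

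Total counts per library ran from 24002696 to 28617629 with DMSO and from 16586254 to 27352812 with sorafenib at 48 hours. At 7 days they ran from 23279342 to 29654546 with DMSO and from 22302847 to 30828427 with sorafenib. A floor of 3 counts corresponds to between 2.44 and 4.54 normalized counts, depending on the library, and covers counting error only. Normalized counts are counts scaled by library total and TMM factor, and they are given as mean ± SD (n = 4) or library by library in the order of replicates 1 to 4.

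Serine is made from 3-phosphoglycerate in steps catalysed by the dehydrogenase PHGDH, the transaminase PSAT1 and the phosphatase PSPH. Serine hydroxymethyltransferases then split serine into glycine and a carbon unit carried by tetrahydrofolate, which the MTHFD enzymes interconvert between oxidation states, and which leaves as formate, purine and thymidylate carbons or methyl groups. Cytosol and mitochondria hold parallel sets of these enzymes, encoded by separate genes, and proliferating and tumour cells are known to draw heavily on the mitochondrial set.

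The cell type was checked against marker genes. Of 8 hepatoblast markers, Hnf4a had 0 counts in all 16 libraries, Alb had 0 counts in all 8 libraries of 48 hours and averages of 0.214 and 0.449 normalized counts at 7 days, and Afp averaged between 0.217 and 9.45. The progenitor marker Dlk1 was the most abundant of the list, with 32234 ± 841 and 10444 ± 847 normalized counts with DMSO and sorafenib at 48 hours and 16766 ± 807 and 4020.2 ± 84.9 at 7 days. Krt19, the next, had 2626 ± 110.1 and 1537 ± 73.4 at 48 hours and 1457 ± 55.5 and 1016 ± 31.9 at 7 days. Group averages ran from 177 to 335 for Krt18, 63.5 to 136.1 for Krt8 and 2.78 to 29.3 for Epcam, with the library described below included. Of the 6 tested markers, 5 were lower with sorafenib at 48 hours, all but Afp, and 6 at 7 days. Over all tested genes, 27.7% were lower at 48 hours and 27.9% at 7 days. Thus the hepatoblast list was split. Dlk1 and Krt19 were high in these libraries, while Alb, Afp and Hnf4a of the same list were absent or near 0. The summed level of the hepatoblast list was 35980, 34620, 34660 and 35900 with DMSO and 12460, 13330, 11660 and 11650 with sorafenib at 48 hours. At 7 days it was 19820, 18240, 18860 and 17970 with DMSO and 5149, 5364, 5265 and 5359 with sorafenib.

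Of the markers of fibroblasts or stellate cells, the collagen genes Col1a1 and Col3a1 were high in all libraries and carried most of the sum. Col1a2, Pdgfra and Dcn were far lower, with values given under the other observations. The summed level of the 5 genes was 115900, 115700, 117500 and 116700 with DMSO and 130100, 138900, 125100 and 130000 with sorafenib at 48 hours. At 7 days it was 93400, 89710, 94310 and 92130 with DMSO and 64730, 63390, 63270 and 63210 with sorafenib. Of the 5 genes, 3 were higher and 2 lower at 48 hours, and 2 were higher (Col1a1 and Col1a2) and 3 lower at 7 days, so the sum follows its most abundant members. Beside these counts, 26.9% of all tested genes were higher and 27.7% lower at 48 hours, and 28.9% and 27.9% at 7 days. The sums of both lists, hepatoblast and stromal, were lower in each library with sorafenib at 7 days than in any with DMSO. Their part in the results on the enzymes was not tested, and in bulk RNA fewer cells of a type and less RNA per cell cannot be told apart. The 3 endothelial markers summed to between 28.1 and 221.7 normalized counts, nearly all from Kdr, with Cdh5 at 0 in 14 of 16 libraries. The 4 immune markers summed to between 58.1 and 88.1, nearly all from Cd68, with Adgre1 at 0 in all 16 libraries.

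The genes that define the line had 3690.0 ± 322 (Trp53) and 13202 ± 532 (Myc) normalized counts with DMSO at 48 hours. Reads on Trp53 alone cannot tell whether the knockout holds, and whether reads on Myc come from the introduced or the resident gene was not tested.

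Some libraries stood apart from their group. Replicate 2 of sorafenib at 48 hours had lowered counts on part of the chromosomes. Against the median of the other 3 replicates, its genes on chromosomes 1 to 13 had a median log2 deviation of 0.09 and its genes on chromosomes 15 to 19 and X one of −0.64, a step of −0.73, whereas the largest step of any other library was 0.07. Of the 10 enzyme genes, only Psat1, on chromosome 19, lies in that stretch. Its log2 fold changes with sorafenib at 48 hours are given with and without this library. The same holds for other genes in the stretch where the text prints such a value. Without this library, values of the other enzyme genes at 48 hours moved too, by less than that of Psat1. Most became lower, such as Phgdh (1.30 to 1.26) and Shmt1 (−0.42 to −0.46), whereas Mthfd2l became higher (0.49 to 0.52). No enzyme gene changed its call at 48 hours. Replicates 2 and 3 of DMSO at 48 hours and replicate 4 of DMSO at 7 days had between 6.05 and 6.75% of their counts on their 10 most abundant genes, against 3.68 to 4.93% in the other libraries. The chi-square per gene between 2 libraries of a group, over genes with at least 100 counts in both together, was highest for replicate 4 of DMSO at 7 days, with 50.4 to 67.2 against 1.89 to 3.11 among the other 3. For replicate 2 of sorafenib at 48 hours it was 31.9 to 36.4, against 2.43 to 5.72 among the others. In DMSO at 48 hours, it was 17.3 to 39.45 between replicates 1 or 4 and replicates 2 or 3, and 4.81 and 5.60 within these pairs. The cause was not tested, and each of these libraries is left out once in the alternatives.

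At both times, the genes of serine synthesis and of the mitochondrial folate cycle were higher with sorafenib. Of the cytosolic genes, Shmt1 was lower and Mthfd1 higher. The log2 fold change of Mthfd1 was 0.47 at 48 hours and 0.08 at 7 days, where its call was lost in some alternatives. At 48 hours 9 of the 10 genes were higher with sorafenib, where 26.9% of all tested genes were, and 1 was lower, where 27.7% were. At 7 days 9 were again higher, against 28.9% of tested genes, and 1 lower, against 27.9%. A gene was called at an FDR under 0.05 in the quasi-likelihood test of edgeR, adjusted by Benjamini-Hochberg over all tested genes, and all fold changes with their FDR values here come from that test. Libraries of both treatments did not overlap for 10 of 10 genes at 48 hours, where 48.0% of tested genes showed no overlap in either direction, and for 9 of 10 at 7 days, where 56.8% did. The median log2 fold change of the 10 genes was 1.22 at 48 hours and 0.88 at 7 days, beside −0.05 and 0.02 over all tested genes. Together the 10 genes took 0.119 to 0.125% of a library's counts with DMSO and 0.322 to 0.335% with sorafenib at 48 hours, and 0.163 to 0.171% and 0.330 to 0.334% at 7 days.

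**Figure D1:**
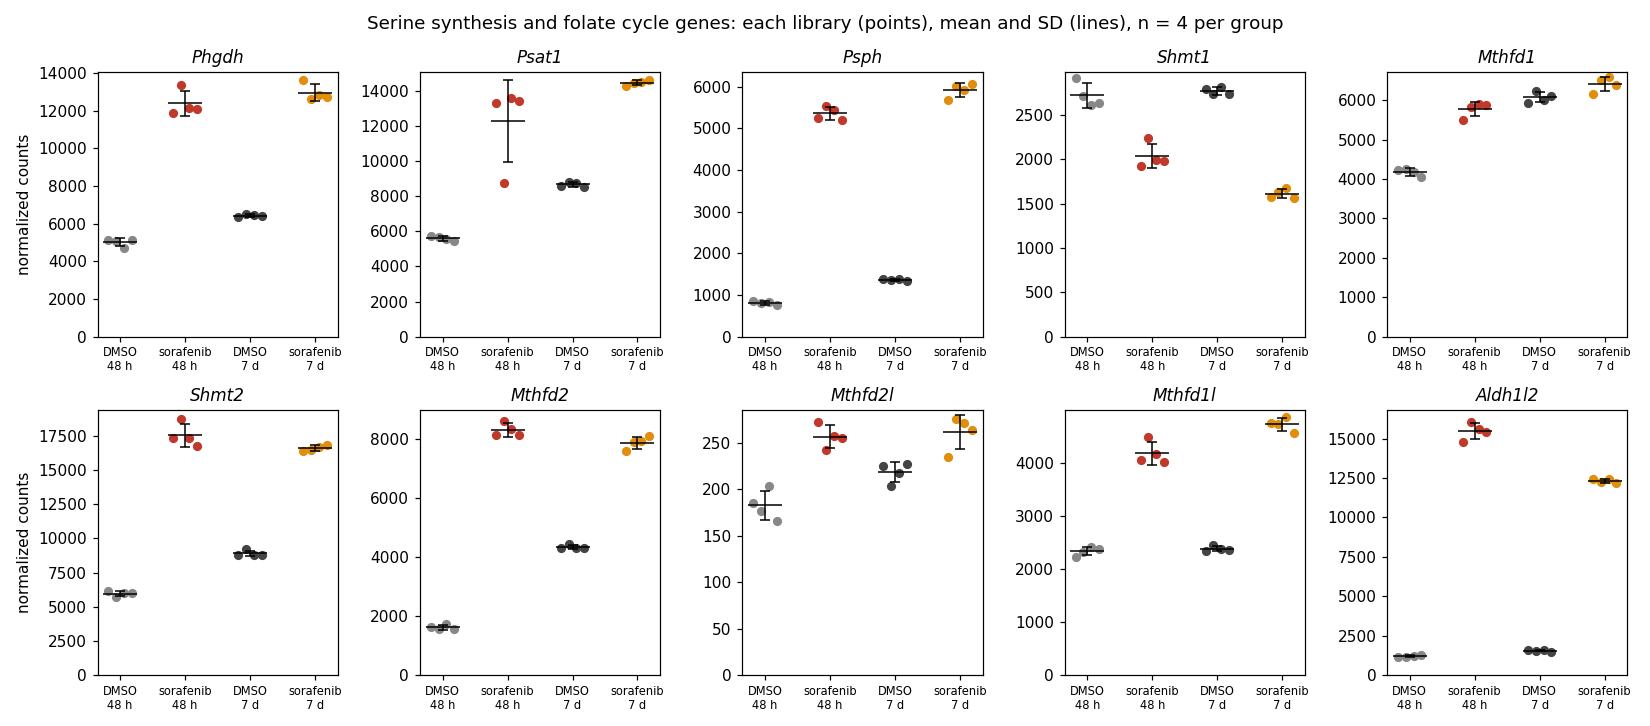
Normalized counts of the 10 enzyme genes in each of the 16 libraries, with replicates 1 to 4 of a group from left to right as points and the mean and SD as lines. Psat1 in replicate 2 of sorafenib at 48 hours had 8748 normalized counts, beside 13292 to 13591 in the other 3.

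Phgdh encodes the dehydrogenase that opens serine synthesis (ENSMUSG00000053398.13, chromosome 3 from 98220484 to 98255047 of GRCm39). Its normalized counts were 5131, 5056, 4724 and 5159.7 with DMSO and 11870.4, 13373, 12162 and 12098 with sorafenib at 48 hours. At 7 days they were 6342, 6514, 6446 and 6384 with DMSO and 13608, 12623, 12824 and 12705 with sorafenib. All libraries with sorafenib were above all libraries with DMSO, and the sorafenib groups of 48 hours and 7 days overlapped. The log2 fold change was 1.30 (SE 0.0389, FDR 2.32e-16) at 48 hours and 1.01 (SE 0.0385, FDR 9.78e-15) at 7 days.

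Psat1 encodes the transaminase of the pathway (ENSMUSG00000024640.11, chromosome 19 from 15882039 to 15924701). It had 5749, 5657, 5586 and 5434 normalized counts with DMSO and 13292, 8748, 13591 and 13416 with sorafenib at 48 hours. The library with the lowered stretch was the lowest of its group and still above all libraries with DMSO at 48 hours. At 7 days Psat1 had 8567, 8815, 8774 and 8543 normalized counts with DMSO and 14267, 14459.5, 14486 and 14586 with sorafenib, again without overlap. The log2 fold change was 1.13 (SE 0.0892) at 48 hours, or 1.26 without replicate 2, and 0.74 (SE 0.088, FDR 4.5e-07) at 7 days.

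Psph encodes the phosphatase that releases serine (ENSMUSG00000029446.16, chromosome 5 from 129841925 to 129864513). Its normalized counts were 847, 804, 829 and 761 with DMSO and 5245, 5544, 5442 and 5211 with sorafenib at 48 hours. At 7 days they were 1389, 1372, 1384 and 1335 and 5671, 6012, 5926 and 6063. Psph had the largest fold change of the 3 genes of serine synthesis at both times, with 6.62 times the level of DMSO at 48 hours and 4.32 times at 7 days (log2 fold change 2.11, SE 0.0369, FDR 6.48e-20). Exons of Psph overlap those of Cct6a on the opposite strand over 465 bases. The source of the counts names no strand setting, so that reads in the overlap are uncertain, and Cct6a itself had 14290.4 ± 248 and 16280.3 ± 561 normalized counts at 48 hours.

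Serine hydroxymethyltransferase of the cytosol is encoded by Shmt1 (ENSMUSG00000020534.16, chromosome 11 from 60661185 to 60708167). It had 2919.7, 2710.2, 2614 and 2642 normalized counts with DMSO and 1929, 2238, 1997 and 1982 with sorafenib at 48 hours. The 7-day libraries had 2791, 2738, 2819 and 2736 and 1575, 1634, 1678 and 1567. Shmt1 was the only gene of the 10 that fell with sorafenib, and each library with sorafenib was below each with DMSO of the same time. Its log2 fold change was −0.42 (SE 0.045, FDR 1.03e-07) at 48 hours and −0.78 (SE 0.045, FDR 7.45e-12) at 7 days, with this direction under all alternatives of scaling. Shmt1 shares 346 bases of exon with Smcr8 on the opposite strand, and Smcr8 had 1565 ± 72.2 and 2052 ± 108 normalized counts at 48 hours, so its share of reads is uncertain too.

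Mthfd1 encodes the trifunctional cytosolic enzyme (ENSMUSG00000021048.9, chromosome 12 from 76301984 to 76366588). Its normalized counts were 4234, 4249, 4173 and 4048 with DMSO and 5500.2, 5837, 5894 and 5877 with sorafenib at 48 hours. At 7 days they were 5937, 6239.6, 6014 and 6106 and 6163, 6506, 6576 and 6392. The groups were apart at 48 hours and overlapped at 7 days. On the log2 scale, the fold change was 0.47 (SE 0.0319, FDR 1.07e-10) at 48 hours and 0.08 (SE 0.0316, FDR 0.0427) at 7 days. The call at 7 days was lost with TMM from chromosomes 1 to 13 (FDR 0.0639) and without replicate 1 or 3 of DMSO at 48 hours, replicate 1, 3 or 4 of DMSO at 7 days, or replicate 2, 3 or 4 of sorafenib at 7 days, where the log2 fold change was 0.07 to 0.08 and the FDR 0.0507 to 0.121, within a range of 0.0029 to 0.121 over all alternatives.

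Among the mitochondrial enzymes, Shmt2 is the counterpart of Shmt1 (ENSMUSG00000025403.7, chromosome 10 from 127352266 to 127358323). It had 6138, 5713, 6020.4 and 5989 normalized counts with DMSO and 17372, 18745, 17329.7 and 16768 with sorafenib at 48 hours. After 7 days it had 8800.1, 9199, 8815 and 8781 and 16426, 16488, 16693 and 16854. Shmt2 was higher in each library with sorafenib, by 2.94 times at 48 hours and 1.87 times at 7 days (log2 fold change 0.90, SE 0.0333, FDR 6.18e-15). Its opposite-strand neighbour Ndufa4l2 had 39 counts over all libraries, beside 193122 on Shmt2.

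Mthfd2 encodes the mitochondrial dehydrogenase and cyclohydrolase (ENSMUSG00000005667.10, chromosome 6 from 83282673 to 83302890). Its normalized counts were 1639, 1574, 1730.5 and 1544 with DMSO and 8131, 8610.2, 8323 and 8107 with sorafenib at 48 hours. At 7 days they were 4298, 4420.1, 4293 and 4303 with DMSO and 7584, 7882, 7911 and 8073 with sorafenib. The 7-day DMSO libraries were far above those of 48 hours, while the sorafenib libraries of both times lay within 7584 to 8610. The log2 fold change with sorafenib was thus 2.35 (SE 0.0369) at 48 hours and 0.86 (SE 0.0348, FDR 2.47e-14) at 7 days.

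Mthfd2l, a paralog of Mthfd2 with the same activities (ENSMUSG00000029376.10, chromosome 5 from 91078920 to 91169231), was the least abundant of the 10 genes. It had 185, 177, 203 and 166 normalized counts with DMSO and 272, 242, 257 and 256 with sorafenib at 48 hours. In the 7-day libraries the counts were 225, 204, 218 and 227 and 235, 275, 271 and 264. The groups did not overlap, although at 7 days the highest DMSO library and the lowest sorafenib library were 227 and 235. Its log2 fold change was 0.49 (SE 0.0751) at 48 hours and 0.26 (SE 0.0708, FDR 0.00327) at 7 days.

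Mthfd1l encodes the mitochondrial synthetase that yields formate (ENSMUSG00000040675.19, chromosome 10 from 3922870 to 4117081). Its normalized counts were 2233, 2322, 2406 and 2382 with DMSO and 4044, 4494, 4167 and 4011 with sorafenib at 48 hours. At 7 days they were 2337, 2455, 2374 and 2362 and 4752, 4739, 4861 and 4565. The DMSO groups of both times overlapped, and the sorafenib group of 7 days lay above that of 48 hours. Mthfd1l thus had a log2 fold change of 0.84 (SE 0.0382) at 48 hours and 0.99 (SE 0.038, FDR 1.11e-14) at 7 days.

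Aldh1l2, which oxidises formyl-tetrahydrofolate to carbon dioxide while making NADPH, had the largest fold change of the 10 genes at both times (ENSMUSG00000020256.16, chromosome 10 from 83323314 to 83370005). It had 1147, 1159.9, 1232 and 1273 normalized counts with DMSO and 14802, 16058, 15616 and 15408 with sorafenib at 48 hours. After 7 days the counts were 1569.9, 1554, 1589 and 1492 and 12445, 12217, 12418 and 12187. Each library with sorafenib held several times the level of any with DMSO, and the 7-day sorafenib libraries lay below those of 48 hours. The level with sorafenib was 12.9 times that with DMSO at 48 hours and 7.94 times at 7 days (log2 fold change 2.99, SE 0.0374, FDR 5.92e-22). Aldh1l2 shares 1056 bases of exon, 14.1% of its length, with Nopchap1 on the opposite strand. The counts hold no gene of the name Nopchap1, so reads in that overlap are uncertain. Mthfd1 and Mthfd1l overlap noncoding genes of the opposite strand, over at most 335 and 150 bases each.

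**Figure D2:**
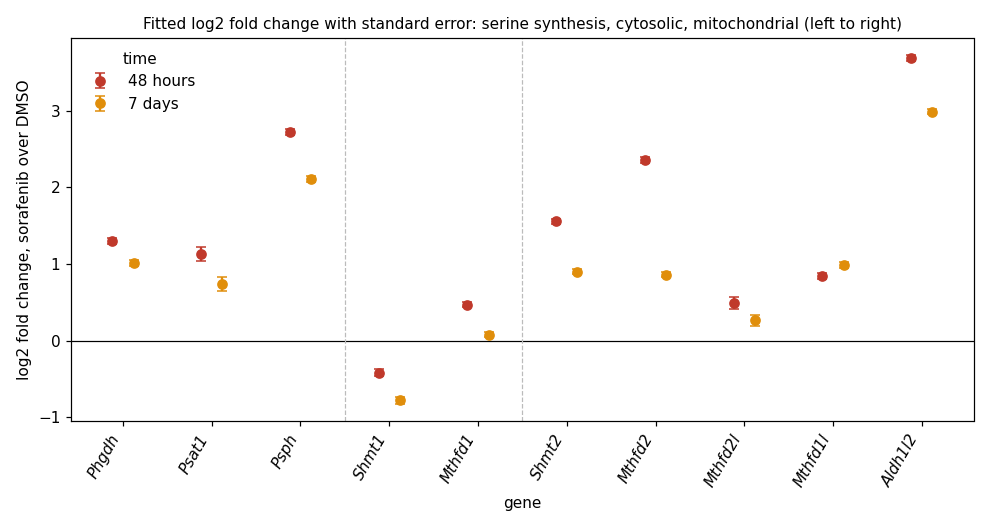
Fitted log2 fold change of sorafenib over DMSO for the 10 genes at 48 hours and 7 days, with standard errors as bars and dashed lines between serine synthesis, cytosolic and mitochondrial enzymes. Values run from −0.78 (Shmt1, 7 days) to 3.68 (Aldh1l2, 48 hours).

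The response changed between 48 hours and 7 days for most of these genes. The interaction of treatment and time, which is the log2 fold change at 7 days minus that at 48 hours, was lower for 8 of the 10 genes, where 21.3% of tested genes were, and higher for 1, where 15.5% were. With total counts only, the 10 genes gave the same counts, whereas 16.1% of tested genes were lower and 20.2% higher, so the balance over all genes depended on scaling. Its median over the 10 genes was −0.39, beside 0.02 over all tested genes. Mthfd2 had the largest difference, −1.49 (SE 0.0498, FDR 1.19e-14), followed by Aldh1l2 at −0.70 (SE 0.0502), Shmt2 at −0.66 (SE 0.0469) and Psph at −0.62 (SE 0.0518). For Shmt1, a lower value means a larger fall at 7 days (−0.36, SE 0.0636, FDR 0.000131). Mthfd1 had −0.39 (SE 0.0449) and Phgdh −0.29 (SE 0.0541, FDR 0.000224).

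Mthfd1l alone had a larger rise at 7 days, by 0.15 (SE 0.0536, FDR 0.0329). This call was lost without replicate 1, 3 or 4 of DMSO at 7 days or replicate 1, 2 or 3 of sorafenib at 7 days, where the log2 difference was 0.14 to 0.15 and the FDR 0.0528 to 0.0707, within 0.000151 to 0.0707 over all alternatives. For Psat1 the difference was −0.39 (SE 0.124, FDR 0.0169), and −0.53 (FDR 2.01e-18) without replicate 2 of sorafenib at 48 hours. The call for Psat1 was lost with TMM from chromosomes 1 to 13 (−0.38, FDR 0.0587), and without replicate 3 or 4 of DMSO at 48 hours or replicate 1, 3 or 4 of sorafenib at 48 hours, where the difference was −0.36 to −0.32 and the FDR 0.05 to 0.0683, the latter the highest over all alternatives. Mthfd2l did not pass (−0.23, SE 0.103, FDR 0.0919).

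Changes with time were larger in the controls than in the treated cells for most of the genes. In DMSO, 8 of the 10 were higher at 7 days than at 48 hours, where 23.9% of tested genes were, and none was lower, where 25.5% were. The rises ran from 0.26 (Mthfd2l, SE 0.074) to 1.42 (Mthfd2, SE 0.0362), with 0.76 for Psph and 0.63 for Psat1. Shmt1 and Mthfd1l had 0.03 (FDR 0.668) and 0.03 (FDR 0.584) and were not called. In sorafenib, 4 genes were higher at 7 days, where 17.5% of tested genes were, and 2 were lower, where 22.3% were. Those higher were Mthfd1l (0.18), Mthfd1 (0.15), Psph (0.14) and Psat1 (0.24, FDR 0.0386), and those lower were Shmt1 (−0.33) and Aldh1l2 (−0.33). The median over the 10 genes was 0.45 in DMSO and 0.05 in sorafenib, beside −0.01 and 0.01 over all tested genes. Each group enters a treatment comparison and a time comparison, so that these values share libraries with the fold changes above.

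In sorafenib, the size of the difference of Psat1 with time rested on the library with the lowered stretch, since without it the log2 fold change was 0.10 (FDR 0.000389). It was not called in 3 alternatives of scaling, filter or libraries fitted, with an FDR of 0.0552 to 0.134, nor without replicate 1, 2, 3 or 4 of sorafenib at 7 days, where it was 0.23 to 0.24 with an FDR of 0.0617 to 0.0746, in a range of 0.000389 to 0.134 over all alternatives. Phgdh had 0.06 (FDR 0.198) and passed in 6 of 24 alternatives, among them DESeq2 (0.10, FDR 0.0336) and the fit without that same library of 48 hours, with 0.10 (FDR 0.00185, in a range of 0.00185 to 0.479). Shmt2, Mthfd2 and Mthfd2l had −0.08, −0.08 and 0.03 and were not called, although for Mthfd2 the groups did not overlap.

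Mitochondrial and cytosolic enzymes of the same step were compared as a ratio of normalized counts within each library. The ratio of Shmt2 to Shmt1 was 2.1, 2.11, 2.3 and 2.27 with DMSO and 9, 8.38, 8.68 and 8.46 with sorafenib at 48 hours. At 7 days it was 3.15, 3.36, 3.13 and 3.21 and 10.4, 10.1, 9.95 and 10.8. Each library with sorafenib was thus shifted towards the mitochondrial enzyme, by 1.98 on the log2 scale at 48 hours and 1.68 at 7 days, since Shmt2 was higher and Shmt1 lower.

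The ratio of Mthfd2 to Mthfd1 was 0.387, 0.37, 0.415 and 0.382 with DMSO and 1.48, 1.48, 1.41 and 1.38 with sorafenib at 48 hours. At 7 days it was 0.724, 0.708, 0.714 and 0.705 and 1.23, 1.21, 1.2 and 1.26. In counts, Mthfd1 exceeded Mthfd2 in all 8 DMSO libraries and Mthfd2 exceeded Mthfd1 in all 8 sorafenib libraries, a crossing that depends on gene length and is therefore a statement on counts alone. The ratio of Mthfd1l to Mthfd1 rose from 0.56 ± 0.028 to 0.724 ± 0.0376 at 48 hours and from 0.392 ± 0.00355 to 0.738 ± 0.0242 at 7 days. Within mitochondria, the ratio of Mthfd2 to Mthfd2l rose from 8.9 ± 0.323 to 32.4 ± 2.38 and from 19.9 ± 1.26 to 30.2 ± 1.63. For these 4 ratios at both times, the groups did not overlap. A two-sided exact permutation test gave p = 0.0286 and, over the 8 tests, an adjusted p of 0.0286, the smallest that 4 libraries against 4 allow. Any ratio without overlap gives this p, so the test adds nothing to the lack of overlap. The share of other gene pairs without overlap was not examined. Among single tested genes it was 48.0% at 48 hours and 56.8% at 7 days. The log2 differences were 1.89 and 0.78 for Mthfd2 over Mthfd1, 0.37 and 0.91 for Mthfd1l over Mthfd1, and 1.86 and 0.60 for Mthfd2 over Mthfd2l, at 48 hours and 7 days. Whether a ratio changed by a different amount at either time was not tested. The ratio of Aldh1l2 to its cytosolic counterpart Aldh1l1 could not be formed, because Aldh1l1 had 0 counts in 3 libraries with sorafenib at 48 hours and in 2 at 7 days, and averaged at most 3.53 normalized counts in any group.

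**Figure D3:**
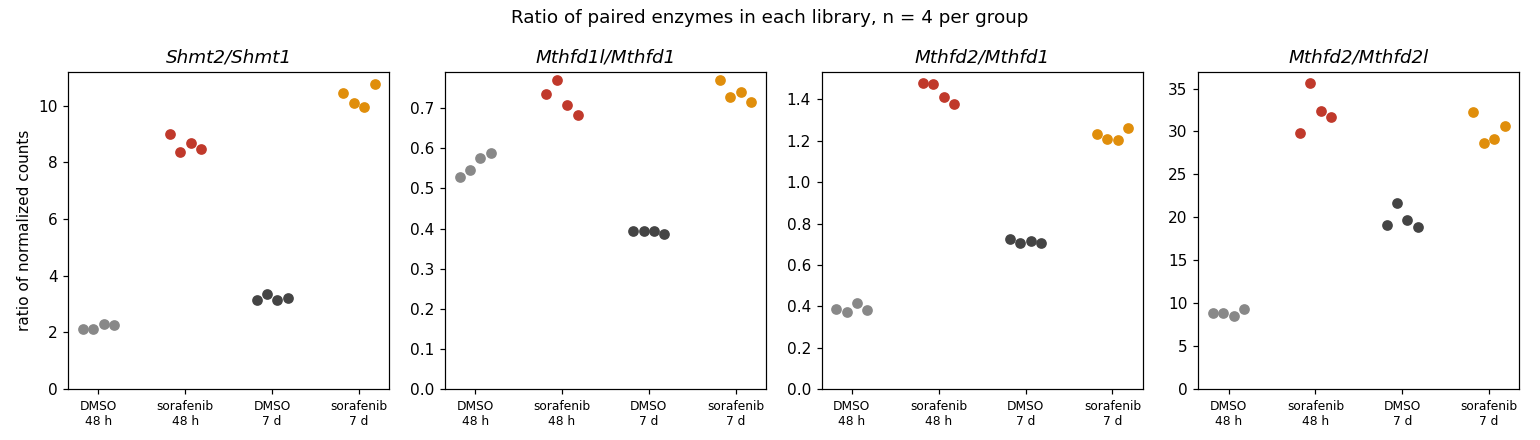
Ratio of normalized counts of paired enzymes in each library, with replicates 1 to 4 of a group from left to right. With sorafenib, Shmt2/Shmt1 lay between 8.38 and 10.8, and with DMSO between 2.10 and 3.36.

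Summed over the 5 mitochondrial genes and the 2 cytosolic genes, the ratio of mitochondrial to cytosolic normalized counts was 1.58, 1.57, 1.71 and 1.7 with DMSO and 6.01, 5.96, 5.79 and 5.67 with sorafenib at 48 hours. At 7 days it was 1.97, 1.99, 1.96 and 1.94 with DMSO and 5.36, 5.11, 5.11 and 5.27 with sorafenib. The mitochondrial sum rose from 11308 ± 268 to 45753 ± 1680 at 48 hours and from 17379 ± 306 to 41785 ± 323 at 7 days. The cytosolic sum was 6897 ± 205 and 7814 ± 273 at 48 hours and 8845 ± 102 and 8023 ± 226 at 7 days. These sums carry no test.

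Levels were compared between genes as normalized counts per kilobase of exon. In DMSO at 48 hours, the order from high to low was Phgdh (1776), Shmt2 (1452), Psat1 (953), Mthfd1 (850.3), Mthfd2 (443), Shmt1 (420.1), Mthfd1l (201), Aldh1l2 (160.3), Psph (110.2) and Mthfd2l (16.8). The only neighbours in that order whose libraries overlapped were Mthfd2 and Shmt1. In sorafenib at 48 hours the order was Phgdh (4379), Shmt2 (4273), Mthfd2 (2265), Psat1 (2084), Aldh1l2 (2062), Mthfd1 (1176), Psph (729), Mthfd1l (359.6), Shmt1 (314) and Mthfd2l (23.6). With replicate 2 included, the libraries of Phgdh and Shmt2 overlapped, as did those of Mthfd2, Psat1 and Aldh1l2 as neighbours, and those of Mthfd1l and Shmt1. Without it, an alternative added after the data were seen, Psat1 (2283) ranked above Mthfd2 (2236), with overlapping libraries, and the other places stayed the same. Per length of exon, Aldh1l2 thus moved from rank 8 to rank 5 and Shmt1 from rank 6 to rank 9, and with the canonical transcript length described below from rank 9 to rank 5 and from rank 5 to rank 9.

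In DMSO at 7 days, the order per length was Phgdh (2272), Shmt2 (2166), Psat1 (1474), Mthfd1 (1237), Mthfd2 (1182), Shmt1 (428), Aldh1l2 (207), Mthfd1l (205), Psph (186) and Mthfd2l (20.1), and only Aldh1l2 and Mthfd1l overlapped as neighbours. In sorafenib at 7 days it was Phgdh (4579), Shmt2 (4045), Psat1 (2455), Mthfd2 (2148), Aldh1l2 (1641), Mthfd1 (1305), Psph (805), Mthfd1l (407), Shmt1 (249) and Mthfd2l (24.1), with no overlap between neighbours. With the length of the canonical transcript instead, an alternative chosen after the data were seen, levels and order changed in all 4 groups. In DMSO at 48 hours the levels were then 2651 (Phgdh), 2597 (Shmt2), 2140 (Psat1), 1250 (Mthfd1), 951 (Shmt1), 772 (Mthfd2), 629 (Mthfd1l), 333.5 (Psph), 199.6 (Aldh1l2) and 78.2 (Mthfd2l). Shmt2 ranked above Phgdh in all groups except DMSO at 48 hours, and Psph ranked above Aldh1l2 in both DMSO groups and in sorafenib at 7 days. Levels of different genes thus depended on the length chosen, whereas comparisons of a gene between groups did not.

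**Figure D4:**
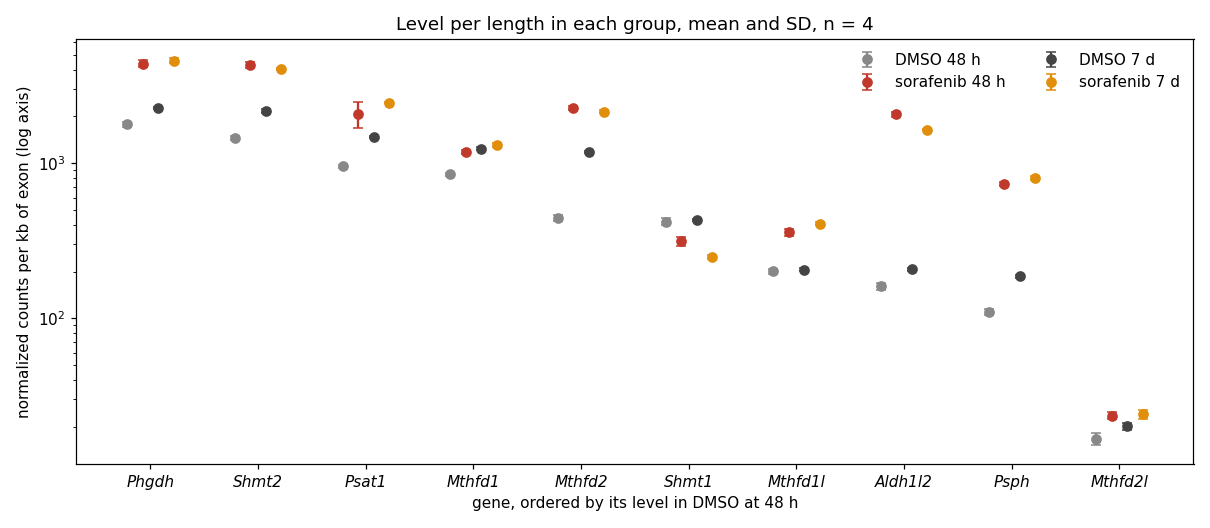
Mean normalized counts per kilobase of exon with SD (n = 4) for the 10 genes in each group, on a log axis, ordered by the level in DMSO at 48 hours. Levels run from 16.8 (Mthfd2l, DMSO at 48 hours) to 4579 (Phgdh, sorafenib at 7 days).

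The promoters of Phgdh and Psph are shown because they are the only ones, among the 9 genes with a promoter in the reference, that hold the core of the antioxidant response element. Both genes rose at both times, as did 6 of the 7 genes without the core, so a rise did not set the 2 apart. Promoters are RefSeq sequence of GRCm38.p6, 250 bases before to 50 bases after the start, on the strand of the gene (the minus strand for both), and capitals mark the match. Aldh1l2 has no entry.
Phgdh: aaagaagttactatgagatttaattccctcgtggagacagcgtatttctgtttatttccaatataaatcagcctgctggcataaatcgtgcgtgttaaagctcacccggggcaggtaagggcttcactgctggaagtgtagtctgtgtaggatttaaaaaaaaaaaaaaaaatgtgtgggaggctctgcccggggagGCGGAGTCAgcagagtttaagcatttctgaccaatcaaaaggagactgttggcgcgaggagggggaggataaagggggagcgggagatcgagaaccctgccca
Psph: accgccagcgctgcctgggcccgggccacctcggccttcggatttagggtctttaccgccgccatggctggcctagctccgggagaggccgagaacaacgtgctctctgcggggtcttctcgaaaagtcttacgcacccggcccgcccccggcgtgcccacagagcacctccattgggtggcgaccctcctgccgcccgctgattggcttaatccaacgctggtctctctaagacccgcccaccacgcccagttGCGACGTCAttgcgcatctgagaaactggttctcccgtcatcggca
The Phgdh promoter spans chr3:98339920-98340219 and the Psph promoter chr5:129787204-129787503. The core was searched on both strands as TGACNNNGC and found at position −53 of Phgdh and position 4 of Psph, counted from the start at 0, as GCGGAGTCA and GCGACGTCA. Of 32851 promoters, 12.4% hold it. The core of the ATF4 element, TGATGNAA, is in 3.97% of promoters and the E-box CACGTG in 7.15%, and neither was in any of the 9. A match is a description of letters in this window, not a binding site.

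The counts of the lists that follow carry no test and stand beside 26.9% of all tested genes higher and 27.7% lower at 48 hours, and 28.9% and 27.9% at 7 days. Of 6 genes of folate uptake and retention, 2 were higher and 3 lower at 48 hours, and 0 were higher and 4 lower at 7 days, with median log2 fold changes of −0.11 and −0.51. Folr1, a folate receptor, had 339 ± 23.6 and 407 ± 37.1 normalized counts with DMSO and sorafenib at 48 hours and 932 ± 16.1 and 169 ± 13 at 7 days. Its log2 fold change turned from 0.26 (FDR 0.00309) to −2.47 (FDR 6.93e-17), an interaction of −2.73 (SE 0.0977, FDR 2.94e-14). Slc46a1, the proton-coupled folate transporter, fell at both times (−1.50 and −1.44), from 127 ± 15.8 to 45.7 ± 8.33 normalized counts at 48 hours. The mitochondrial folate carrier Slc25a32 lies in the lowered stretch, and had 0.75 at 48 hours (0.90 without replicate 2) and −0.10 at 7 days (FDR 0.475, not called), where it passed with only the 8 libraries compared (FDR 0.0395, in a range of 0.0395 to 0.699).

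Of 8 other cytosolic folate enzymes, 2 were higher and 3 lower at 48 hours, and 1 was higher and 2 lower at 7 days, with medians of −0.20 and −0.18. Tyms, thymidylate synthase, had log2 fold changes of −0.42 and −0.41. Mthfs had 9.03 and 1.94 normalized counts at 48 hours, near the floor. Its log2 fold change of −2.23 (SE 0.504) is thus a fitted value at low counts. It moved to −2.87 without replicate 2 of sorafenib at 48 hours. Without replicate 2 of sorafenib at 48 hours, 2 of the 8 were higher and 4 lower at 48 hours, with Aldh1l1 as the added call.

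The glycine cleavage system and other mitochondrial folate enzymes gave 2 higher and 1 lower of 6 tested at 48 hours, and 3 higher and 2 lower at 7 days, with medians of 0.16 and 0.08. Amt, the aminomethyltransferase of glycine cleavage, had 57.9 ± 9.8 and 139.6 ± 5.64 normalized counts at 7 days (1.27, SE 0.121, FDR 1.79e-08) and a log2 fold change of 0.23 (FDR 0.112) at 48 hours, which passed only without replicate 2 of sorafenib at 48 hours (0.29, FDR 0.0373, in a range of 0.0373 to 0.503). Sardh, sarcosine dehydrogenase, had 0.04 at 48 hours (FDR 0.362, not called) and −0.54 at 7 days (FDR 6.74e-11). Mtfmt, which formylates the initiator tRNA of mitochondria with a folate-borne carbon, rose by 0.50 and 0.15. Without the library with the lowered stretch, 3 of the 6 were higher and 0 lower at 48 hours, since Gldc was no longer called and Amt was. Dmgdh was not tested for want of counts.

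Serine and glycine transport had 4 genes higher and 1 lower of 6 tested at 48 hours, and 4 higher and 2 lower at 7 days, with medians of 0.46 and 0.46. Slc6a9, a glycine transporter, rose from 775 ± 31 to 3394 ± 179 normalized counts at 48 hours (2.13, SE 0.0438, FDR 9.22e-19) and from 913 ± 40.6 to 3409.6 ± 44.2 at 7 days (1.90). Slc1a4, a carrier of serine and other neutral amino acids, rose from 1065 ± 19.1 to 3794 ± 27.7 at 7 days (1.83, SE 0.0409, FDR 2.39e-18). Both had a smaller rise at 7 days than at 48 hours, by an interaction of −0.23 (FDR 0.00516) and −0.18 (FDR 0.0158). Sfxn2, a sideroflexin of the mitochondrial membrane, fell at both times, with −0.70 at 48 hours (−0.58 without the library with the lowered stretch) and −0.60 at 7 days. Without that library, 5 genes were higher at 48 hours, with Sfxn3 added. Slc7a10 was not tested for want of counts.

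Among 8 genes that use serine, 2 were higher and 2 lower at 48 hours and 2 higher and 4 lower at 7 days, with medians of 0.03 and −0.18. Cbs, which joins serine to homocysteine, had 109 ± 10.1 and 43.2 ± 5.36 normalized counts at 7 days (−1.32, SE 0.124, FDR 1.31e-08). Its fall was larger than at 48 hours by −0.78 (FDR 0.000555), or −0.86 without the library with the lowered stretch. At 48 hours its log2 fold change was −0.55, or −0.46 without that library. Sptlc2, a subunit of serine palmitoyltransferase, rose by 0.43 at 48 hours and fell at 7 days (−0.64), an interaction of −1.07 (SE 0.0469, FDR 6.63e-13). Srr, serine racemase, had 0.16 at 48 hours (FDR 0.083, not called) and rose by 0.72 at 7 days. Srr passed at 48 hours with the filter of at least 1 count (0.20, FDR 0.0355) and without replicate 4 of sorafenib at 7 days, with a log2 fold change of 0.16 and an FDR of 0.0442 in a range of 0.0355 to 0.379. Without the library with the lowered stretch, 3 genes were lower at 48 hours, with Ptdss1 added.

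Of 3 regulators known to act on the pathway, 2 were higher and 1 lower at 48 hours, and 1 was higher and 1 lower at 7 days, with medians of 0.30 and −0.0016. Atf4, a transcription factor of amino acid stress, rose from 5017 ± 170.4 to 15179 ± 2672 normalized counts at 48 hours (1.60, or 1.72 without the library with the lowered stretch) and from 8774 ± 243 to 17177 ± 324 at 7 days (0.97, FDR 3.41e-09). Its interaction was −0.63 (FDR 0.000224), or −0.75 without that library. Myc fell at both times, with −0.56 at 48 hours (−0.42 without that library) and −0.51 at 7 days. Nfe2l2, which encodes NRF2, had 0.30 at 48 hours and −0.0016 at 7 days (FDR 0.983, not called).

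Of 9 proliferation genes, 1 was higher (Mcm2) and 6 lower at 48 hours, with Ccnb1 and Cdk1 not called, and 1 was higher (Mcm2) and 8 lower at 7 days, with medians of −0.33 and −0.29. Mki67 had 13826 ± 396 and 9066 ± 399.7 normalized counts at 48 hours (−0.61, SE 0.0335) and a log2 fold change of −0.80 at 7 days. Rrm2 and Mcm5 fell as well, with −0.33 and −0.52 at 48 hours and −0.58 and −0.54 at 7 days.

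**Figure D5:**
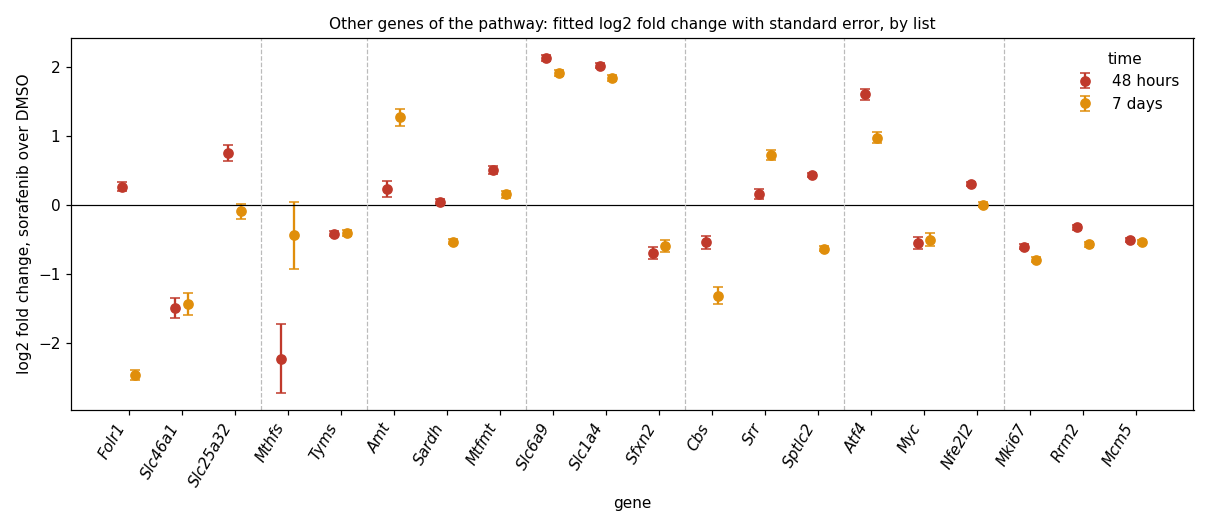
Fitted log2 fold change of sorafenib over DMSO with standard errors for the genes named from the other lists, at 48 hours and 7 days, with dashed lines between lists. Folr1 had the largest fall at 7 days (−2.47) and Slc6a9 the largest rise at 48 hours (2.13).

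Over the 10646 genes whose normalized counts averaged at least 100, the 3 genes outside the list nearest to Phgdh, by the root mean square distance of 3 differences of group mean log2 level from DMSO at 48 hours, were Slc3a2 (0.05), Sh3tc2 (0.0597) and Pcgf5 (0.066). All 3 lie on chromosomes 18 and 19, in the stretch lowered in replicate 2 of sorafenib at 48 hours, and Phgdh does not. Without that library, an alternative chosen after the data were seen, the nearest were Cpox (0.054), Eif3c (0.0658) and Washc5 (0.0735), so that which genes were nearest to Phgdh rests on this library. Nearest to Mthfd2 were Gatm (0.13), Eps8 (0.146) and Zdhhc2 (0.174), with and without it (0.124, 0.146 and 0.173 without).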

How the data were processed

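The deposited values are counts of reads on each gene, which the authors made from stranded mRNA libraries with STAR 2.7.1a on GRCm39 and featureCounts 2.0.6. The sources used here name neither the annotation nor the strand setting of the counting. Total counts per library ran from 16586254 to 30828427. From the counts, genes with fewer than 10 counts over all 16 libraries were removed (20396 genes). The rest were fitted in R 4.3.3 with edgeR 4.0.16 (TMM, quasi-likelihood test, 1 coefficient per group) for 5 contrasts, and called at a Benjamini-Hochberg FDR under 0.05. Replicates may or may not be separate cultures, so p-values measure the spread between libraries only.

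Normalized counts are counts scaled to an effective library size (library total and TMM factor multiplied), set to its geometric mean over libraries. Exon lengths, positions and overlaps came from GENCODE M39. Ratios of paired genes had two-sided exact permutation tests. Checks of replicates used genes whose normalized counts averaged at least 100, and log2 levels with 0.5 added. The edgeR fit was also run on simulated data, and the outcome of that run is not reported here.

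Alternatives were DESeq2 1.42.0, DESeq2 size factors, total counts only, TMM from chromosomes 1 to 13, at least 1 count in any sample, at least 10 counts in every sample, only the 8 libraries compared, the replicate number as a block, each library left out in turn, and ratios per kilobase of exon. Canonical transcript lengths, and likeness and levels per length without 1 library, were added after the data were seen.

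Named genes were the 10 enzyme genes and, from each other list, up to 3 called genes with the largest absolute log2 fold change at either time, and for Phgdh and Mthfd2 the 3 nearest genes. Marker genes, genes that overlap an enzyme gene, genes that a count needed and those under the other observations are named outside this rule. A gene that met the rule is not reported here, although the counts and medians of its list include it. The members and lists were chosen with earlier results of these data known.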

Additional observations from a re-analysis of the deposited data

Results flagged for a closer look

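A library far from the other 3 of its group was looked for in 140 groups of normalized counts or ratios and found in 15. Chance does this in about 1 in 20 groups. Replicate 2 of sorafenib at 48 hours was the low library for Psat1 (8748 normalized counts, next 13292), Atf4 (11184, next 16337) and Myc (6390, next 9564), all in the stretch with its lowered counts. Replicate 1 of that group was low for Mthfd1 (5500, next 5837) and Mtfmt (427, next 466). Replicate 2 of DMSO at 7 days was high for Shmt2 (9199, next 8815) and Mthfd2 (4420, next 4303). In the same group, replicate 3 was high for Sardh (2075, next 1964) and Mtfmt (397, next 377), and replicate 4 was high for Sfxn2 (1272, next 1194) and low for the ratio of Mthfd1l to Mthfd1 (0.387, next 0.393). Among DMSO libraries of 48 hours, replicate 1 was high for Mtfmt (351, next 319) and replicate 2 low for Slc6a9 (729, next 789). Replicate 4 of sorafenib at 7 days was high for Slc46a1 (38.4, next 28.4) and low for Nfe2l2 (1847, next 1891).

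The log2 fold change at 7 days differed from that at 48 hours, by the interaction of treatment and time, for 23 of the 31 genes named by rule, beside 36.8% of all tested genes. Of the 31, 21 were named for large called fold changes, so that the 2 shares are not alike in choice. For the enzyme genes, the differences were −1.49 (Mthfd2), −0.70 (Aldh1l2), −0.66 (Shmt2), −0.62 (Psph), −0.39 (Psat1, −0.53 without replicate 2 of sorafenib at 48 hours), −0.39 (Mthfd1), −0.36 (Shmt1), −0.29 (Phgdh) and 0.15 (Mthfd1l). Lower values at 7 days were also found for Folr1 (−2.73), Sptlc2 (−1.07), Slc25a32 (−0.85, or −1.0005 without that library), Cbs (−0.78, or −0.86 without that library), Atf4 (−0.63, or −0.75 without that library), Sardh (−0.58), Mtfmt (−0.35), Nfe2l2 (−0.30), Rrm2 (−0.25), Slc6a9 (−0.23), Mki67 (−0.19) and Slc1a4 (−0.18). Higher values were found for Amt (1.04) and Srr (0.56).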

How the results depend on the processing

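Over all alternatives, the number of the 10 enzyme genes called was 10 for sorafenib against DMSO at 48 hours, 9 to 10 at 7 days, 8 to 9 for the interaction, 8 for time in DMSO and 5 to 7 for time in sorafenib. The log2 fold changes of these genes gave 1190 comparisons of an alternative with the reported value, of which 1152 left direction and side of the threshold as they were, 28 lost the call, 7 gained one and 3 turned sign. The losses beyond left-out libraries were Mthfd1 at 7 days, the Psat1 interaction and Psat1 over time in sorafenib. Phgdh and Shmt2 over time in sorafenib made up the gains. The 3 turns were in values that were not called, for time in DMSO: Shmt1 was −0.032 and Mthfd1l −0.030 with total counts only, and Shmt1 ran from −0.00024 (without replicate 3 of DMSO at 48 hours) to 0.057 with a library left out. Among other named genes, Sardh at 48 hours was −0.030 with total counts only and −0.0055 (without that same library) to 0.050 with a library left out. Nfe2l2 at 7 days was 0.021 with total counts only, 0.022 with the filter of at least 1 count, 0.024 with that of 10 counts in every library, and −0.011 to 0.0075 with a library left out, none of them called. The cause was not tested.

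Because the groups did not overlap for any ratio of paired genes, leaving out a library could neither turn a difference nor move its p off the smallest value, and so was no check of the ratios. With the replicate number as a block, 10, 10, 9, 8 and 6 enzyme genes were called in the 5 contrasts. The block pairs libraries by number, whose deviations correlated between −0.0483 and 0.0106 at 48 hours and between −0.0074 and 0.123 at 7 days. No scaling moved the median log2 fold change of all genes by more than 0.1. All per-length levels moved with the canonical transcript length. Depth limits the genes near the floor, such as Mthfs and Aldh1l1.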

Other observations

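Outside the enzyme genes, the collagen genes among the stromal markers moved in opposite directions. Col1a1 had 41939 ± 1148 normalized counts with DMSO and 81072 ± 2931 with sorafenib at 48 hours, and 42221 ± 1001 and 52228 ± 783 at 7 days. Col3a1 had 70778 ± 657 and 46413 ± 2844 at 48 hours and 44487 ± 1139 and 10180.2 ± 199 at 7 days. Col1a2 was higher with sorafenib at both times, with 86.2 ± 14.4 and 287 ± 26.5 at 48 hours and 59.6 ± 18.5 and 94.2 ± 26.2 at 7 days. Dcn rose at 48 hours, from 2134 ± 57.6 to 2868 ± 241, and fell at 7 days, from 4889.7 ± 146 to 993 ± 38.8. Pdgfra, a receptor of mesenchymal cells, fell from 1528 ± 23.3 to 354 ± 26.5 and from 729 ± 25.9 to 153 ± 12.6. Kdr, a VEGF receptor and a kinase that sorafenib inhibits, was higher with sorafenib, with 48.5 ± 12 and 122 ± 14 normalized counts at 48 hours and 31.3 ± 3.32 and 197 ± 17 at 7 days.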
